A study of Mus musculus with 4 samples.

Results

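Interferon-induced macrophages and monocytes were the myeloid cells of subcutaneous Lewis lung carcinoma (LLC) tumors whose RNA held the largest shares of 5 interferon-stimulated transcripts. Barcodes were kept when 200 genes or more were detected and mitochondrial transcripts made up no more than 20% of unique molecular identifiers (UMIs). A kept barcode was a member when Ifit1, Ifit2, Ifit3, Rsad2 and Isg15 together made up at least 0.5% of its UMIs. It also had to hold at least 1 UMI of Csf1r or Cd68, at least 3 of Lyz2, at most 1 of the LLC marker Rhox5, none of Cd3e, Cd3d and Cd3g, and at most 1 of the neutrophil genes Csf3r and Retnlg. Members with at least 3 UMIs of the complement genes C1qa, C1qb and C1qc were called macrophages and the others monocytes. The rule found 878 members, 575 macrophages and 303 monocytes, among 10836 barcodes that met the same myeloid gate and 55058 barcodes kept in all. Because the members were chosen by their own UMIs, every comparison of members with the other gated cells is a description of what was chosen, and none was tested.

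The tumors were grown from LLC, an established mouse lung carcinoma cell line, in C57/BL6N mice 6 to 8 weeks old. The RT group received hypofractionated radiotherapy, 24 Gy in 3 fractions of 8 Gy, and the NT group a mock treatment, with isolation of all tumors 72 h after treatment. The NT group was 1 library from 3 pooled tumors and the RT group 3 libraries (RT1, RT2 and RT3), which the study describes as individual samples and for which the labels do not give the number of tumors. Whole tumors were dissociated, debris and dead cells were taken out, and the cells were loaded without sorting. Changes in the number of a cell type and in its RNA content both alter the shares of barcodes given here. These changes cannot be told apart, and removal of dead cells may alter the shares as well. Subcutaneous growth of 1 cell line limits the tumors as a model of lung cancer.

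Type I interferons are secreted proteins that signal through a shared receptor and the kinases JAK1 and TYK2 to a complex of transcription factors. That complex binds interferon-stimulated response elements in promoters and switches on genes that block viral replication, sense nucleic acids and present antigen. Macrophages make interferon beta after sensing viral or displaced cellular nucleic acid, and they also answer to interferon made by other cells. IFIT1, IFIT2 and IFIT3 bind viral RNA, viperin (Rsad2) produces a nucleotide that ends RNA chains, and ISG15 is a ubiquitin-like protein that is joined to other proteins.

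The promoters of the genes in the rule are shown because interferon acts through an element in promoters. The core of that element was searched as GAAA, any 2 bases, GAAA, on both strands, within the 250 bases before each RefSeq start site (GRCm38.p6, matched by symbol; the deposited tables were matched to no coordinates). The stretches read 5′ to 3′ along the strand of the gene, and capitals mark the bases of the match. Ifit1 lies on the plus strand (chr19:34640760-34640838) with matches that begin 104 and 85 bases before the start, and Ifit3 on the plus strand (chr19:34583348-34583441) with matches at 156 and 122 bases. Rsad2 lies on the minus strand (chr12:26456538-26456597) with 1 match at 120 bases, and Isg15 on the minus strand (chr4:156200850-156200921) with 3 overlapping matches between 78 and 66 bases.
Ifit1: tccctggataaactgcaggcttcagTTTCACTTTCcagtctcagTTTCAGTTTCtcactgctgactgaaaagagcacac
Ifit3: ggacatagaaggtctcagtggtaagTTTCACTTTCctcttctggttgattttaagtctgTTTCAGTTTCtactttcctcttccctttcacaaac
Rsad2: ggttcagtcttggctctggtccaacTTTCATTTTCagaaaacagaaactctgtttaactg
Isg15: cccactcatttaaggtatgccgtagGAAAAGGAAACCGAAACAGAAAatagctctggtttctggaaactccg
In Ifit1, Ifit3 and Rsad2 the match stood on the opposite strand, so that it reads TTTC, any 2 bases, TTTC, and in Isg15 it stood on the strand of the gene. These letters were not in the 250-base windows of the 2 Ifit2 start sites. Of 27025 genes with a promoter in the table, 3.46% held the motif.

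The 4 libraries held 69667759 UMIs on 10141 barcodes (NT), 78585759 on 15346 (RT1), 108699844 on 14994 (RT2) and 85660188 on 15324 (RT3), of which 9976, 15029, 14993 and 15060 barcodes were kept. The RT2 table stood apart from the others. It listed 18605 genes, against 32285 in each other table, and no barcode in it exceeded 11.95% mitochondrial UMIs, while the highest values elsewhere were 91.5% to 97.0%. All libraries were therefore read over the 18605 shared genes, leaving out 0.00185% of UMIs or less, and counts without RT2 are given beside each main count. Of the 878 member barcodes, 39 had a sequence that also occurred in another library, and none was a member in both. Series of 4 values are ordered as NT, RT1, RT2, RT3, and series of 3 values as RT1, RT2, RT3. The median member macrophage held 3496, 2546, 3706 and 2742 UMIs, and the median member monocyte 1467, 1489, 2400 and 1391. The 20 monocytes of NT summed to 30742 UMIs, so 1 UMI was worth 32.5 CPM there (counts per 1e+06 UMIs of the class), and values of NT monocytes carry the widest counting intervals.

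Rsad2 was the most abundant of the 5 transcripts in member macrophages, at 6452, 3997, 5265 and 6150 CPM. Those macrophages of the gate that stayed below the threshold held 493, 175, 264 and 279 CPM. Rsad2 alone gave 63.2%, 45.2%, 53.8% and 55.9% of the UMIs of the 5 genes in member macrophages, and these shares and the levels of the 5 genes describe the members only, since the sum of the 5 chose them. Ifit1 stood at 1553, 1861, 1588 and 2428 CPM and Ifit3 at 476, 1291, 1260 and 1102 CPM. Isg15 was at 881, 835, 906 and 737 CPM and Ifit2 at 842, 852, 764 and 587 CPM. Member monocytes held 5432, 5798, 5147 and 6957 CPM of Rsad2 and 1073, 2485, 2501 and 2810 CPM of Ifit1. All 5 genes were detected in 356 of 878 members (40.5%), at least 4 in 69.9%, and 1 gene only in 19. In 71.4%, 42.5%, 53.9% and 62.7% of members, 1 gene gave more UMIs than the other 4 together.

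The threshold cut a continuous distribution. Of all gated barcodes, 6126 held no UMI of the 5 genes, 176 lay between 0.4% and 0.5% and 156 between 0.5% and 0.6%, and 63 reached 2% or more. The medians of members were 0.856%, 0.856%, 0.895% and 1.04%, and the highest values were 3.16%, 3.93%, 3.68% and 5.33%. The class is a range above a threshold, and whether it forms a group of its own was not tested. Its smallest members carried 3 UMIs of the 5 genes.

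At the threshold of 0.5%, members were a larger share of the gated myeloid cells in NT than in each RT library. They made up 12.9% of gated cells in NT (exact binomial 95% interval 10.8 to 15.3, 119 of 921) and 7.22%, 6.94% and 9.42% in the RT libraries (mean 7.86% ± 1.36, SD, n = 3), a difference of RT minus NT of −5.06 percentage points. The classes are given apart, and the difference between them was not tested. Among gated macrophages, 15.7% (12.9 to 18.7) were members in NT and 7.27%, 6.34% and 10.5% in the RT libraries, whereas among gated monocytes the shares were 6.92% (4.28 to 10.5) and 7.12%, 8.18% and 8.17%. The gated cells themselves were 9.23% of kept barcodes in NT and 25.3%, 24.6% and 16.1% after radiotherapy. Over all kept barcodes the order turned, since members were 1.19% (0.989 to 1.43) in NT and 1.83%, 1.71% and 1.51% after radiotherapy. Thinned to 1000 UMIs each, with shallower cells left out (123, 560, 310 and 365 gated cells), members were 14.7% of gated cells in NT and 7.73%, 8.35% and 10.7% in the RT libraries, against 13.7%, 7.14%, 6.96% and 9.29% of the same cells unthinned. Without barcodes that held an Ifnb1 UMI, a choice made after seeing the data, the difference of −5.06 points shrank to −0.182, and RT3 (7.42%) lay above NT (6.89%). At a threshold of 1% RT3 (4.96%) also lay above NT (4.78%). With 1 NT library, its intervals cover counting error only and say nothing of the spread between control tumors, so no test was run and a difference between groups cannot be told apart from one between libraries.

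Macrophages were 83.2% of the members in NT (75.2 to 89.4) and 66.9%, 61.3% and 59.2% of RT members (mean 62.5% ± 3.98, SD, n = 3). No RT library reached the NT interval, but after thinning to 2000 UMIs the shares were 88.0%, 81.8%, 67.0% and 83.6%. Thinning left out every shallower cell and members were reselected, so these shares rest on 83, 148, 212 and 116 members in place of 119, 275, 256 and 228, and on 10, 27, 70 and 19 monocytes among them. Member monocytes were 0.200% of kept barcodes in NT (0.123 to 0.309) and 0.605%, 0.660% and 0.618% in RT, while member macrophages were 0.992%, 1.22%, 1.05% and 0.896%. Among all gated cells, macrophages were 68.6% in NT and 66.4%, 67.2% and 52.98% in the RT libraries.

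**Figure D1:**
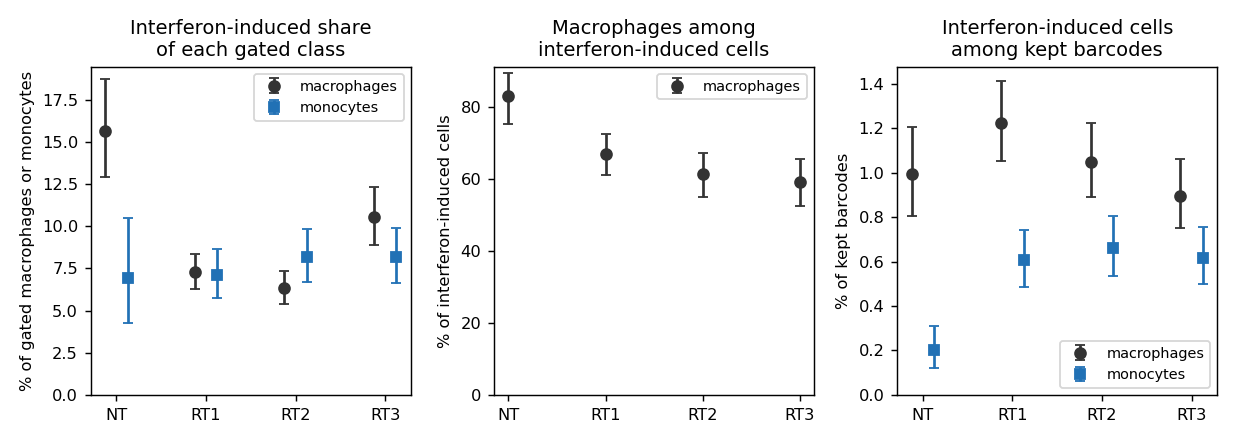
Shares of interferon-induced macrophages (circles) and monocytes (squares) in the NT library and the 3 RT libraries, in percent of the gated class (left), of all members (center) and of kept barcodes (right), with exact binomial 95% intervals for counting error. The macrophage share of NT, 15.7%, lies above those of the RT libraries, while member monocytes are 0.200% of kept barcodes in NT and 0.605% to 0.660% in RT.

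The names macrophage and monocyte held against markers that the rule did not read. Of the 11 macrophage markers that could be compared, 7 were at least 2-fold higher in member macrophages than in member monocytes in all 4 libraries (Pf4, Apoe, Folr2, Lyve1, Selenop, Adgre1 and Ms4a7), and of 9 classical monocyte markers 8 were at least 2-fold lower. Ly6c2, which marks inflammatory monocytes, stood at 28.0, 240, 574 and 129 CPM in member macrophages and at 1854, 3567, 2326 and 3375 CPM in member monocytes. Markers of other lineages were also counted. For dendritic cells, the list of 10 genes was led by Clec10a with 572 UMIs in the 575 member macrophages, 71 cells held 3 or more UMIs of the list (689 of 6345 in the other macrophages), and Flt3, Siglech and Itgae were at 0. The 8 tumor markers were led by Ccnd1 with 385 UMIs, with 57 cells at 3 or more UMIs (496 in the other macrophages) and Tagln at 0. In 7 cells the 11 lymphocyte and NK genes reached 3 UMIs, with Cd8b1, Ncr1 and Cd79a at 0, and the neutrophil genes did so in 2 cells. In the 303 member monocytes, 5 cells held 3 or more UMIs of the dendritic cell genes, 18 of the tumor markers, 8 of the neutrophil genes (led by S100a8 with 51 UMIs) and 1 of the lymphocyte and NK genes, with Cd8a, Cd4 and Trac at 0. In the 3613 other monocytes the same counts were 37, 112, 162 and 8. In member macrophages and monocytes, fibroblast genes reached 3 UMIs in 5 and 1 cells and endothelial genes in 2 and 1. The part of such cells in the results was not tested.

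In the macrophages, members differed from the cells below the threshold by a short set of genes shared by all libraries and by a broader one in the RT libraries. A gene was counted when log2 of the ratio of summed CPM, with 5 CPM added to each side, was at least 1 in all 4 libraries and its mean was at least 20 CPM. Of 5050 genes, 31 were higher (0.614%) and 2 were lower (0.0396%). The 31 comprised the 5 of the rule, 16 genes of 8 interferon lists (132 genes, rule genes aside), and 10 others, among them the chemokines Cxcl10 and Ccl5 and the cytokine Il6. The 2 lower genes were Mmp9, a gelatinase, and Ctsk, a collagen-degrading cathepsin. Without RT2, 36 were higher and 5 lower, without RT1 32 and 4, without RT3 37 and 3, and without NT 112 and 5.

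Antiviral effectors supplied 9 of the 16, with 32 of 35 listed genes measured. Cmpk2, a mitochondrial nucleotide kinase encoded beside Rsad2, was at 191, 569, 758 and 595 CPM in members and at 21.8, 15.9, 22.4 and 23.1 CPM in the other macrophages. Ifit3b and Ifit1bl1, relatives of the rule genes, were at 86.5, 213, 216 and 323 CPM and at 28.0, 376, 477 and 264 CPM in members, and no library of the other macrophages exceeded 10.2 CPM for either. Reads of these near-identical relatives may be split between copies, so their levels are uncertain. Isg20, an RNA exonuclease, was at 28.0, 143, 221 and 84.4 CPM in members and 7.41, 19.0, 34.0 and 22.8 CPM in the others. Ifi44, Rtp4, Parp14, Znfx1 and Ddx60 completed the group.

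Among the sensors of nucleic acid, 3 of 21 measured genes were higher in all 4 libraries, Ifih1, Ddx58 and Ifi213. Ifih1 encodes MDA5, a receptor for long double-stranded RNA. It was highest in NT, at 557 CPM against 333, 283 and 372 CPM in the RT libraries, and 101, 53.9, 47.7 and 86.4 CPM in the other macrophages. Ddx58, which encodes RIG-I, was at 66.2, 220, 195 and 127 CPM against 25.5, 48.6, 41.9 and 46.1 CPM. Oasl1, an inhibitor of IRF7 translation, was the 1 of 4 measured oligoadenylate synthetase genes to pass, at 356, 879, 912 and 642 CPM against 99.6, 187, 190 and 158 CPM. Gbp5 was the 1 of 14 guanylate binding proteins and immunity-related GTPases, at 45.8, 34.9, 118 and 61.2 CPM.

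Cxcl10, which attracts T cells through CXCR3, was the most abundant of the 31. It was at 8389, 5660, 6433 and 8432 CPM in member macrophages and at 2877, 1068, 1200 and 1896 CPM in the others, and the libraries of the 2 classes did not overlap. It was detected in 92.9%, 85.9%, 92.4% and 93.3% of member macrophages, but also in 42.8%, 42.3%, 59.2% and 49.97% of Rhox5-positive tumor barcodes, whose median depths were 8224, 6454, 8886 and 6998 UMIs. Ccl5, another T cell attractant, was at 863, 461, 1042 and 836 CPM in members and 126, 105, 183 and 283 CPM in the others. Il6 was low in both classes, at 43.3, 26.6, 34.0 and 46.4 CPM in members and 13.4, 10.4, 8.66 and 11.7 CPM in the others, from 17, 16, 23 and 22 UMIs. Outside the lists, Ncoa7, Nt5c3, March5, Fgl2, Serpina3g, Trim34a and Slpi were higher, of which Fgl2, a prothrombinase with a soluble immunoregulatory form, was the most abundant, at 827, 892, 733 and 756 CPM against 376, 285, 242 and 280 CPM.

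**Figure D2:**
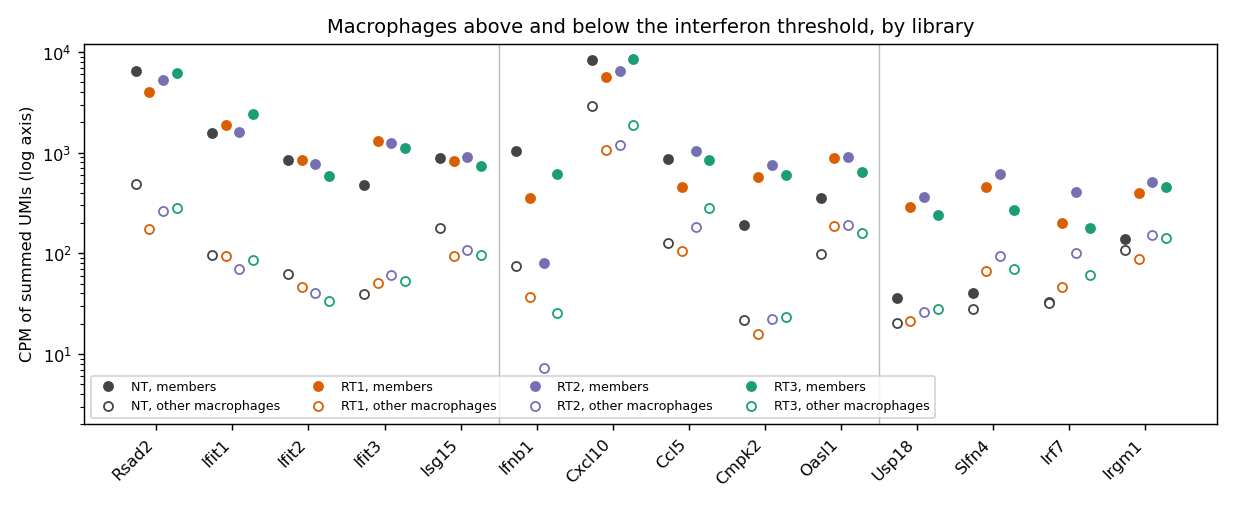
CPM of summed UMIs (log axis) in interferon-induced macrophages (filled) and in gated macrophages below the threshold (open) for each library. Left of the first line stand the 5 genes that chose the members, then 5 genes at least 2-fold higher in members in all 4 libraries, then 4 that were not, among which Irf7 and Usp18 of NT members lie near the open symbols (33.1 and 35.6 CPM) and those of RT members far above.

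The wider interferon program separated members from the other macrophages by larger ratios in the RT libraries than in NT. Over the 105 measured genes of the 8 interferon lists, the median log2 ratio of members over the other macrophages was 0.30, 1.76, 1.47 and 1.08, while the median of all 5050 genes over the 4 libraries was −0.14. In the 3 RT libraries alone, 59 of the 105 were at least 2-fold higher, and 43 of these stayed under 2-fold in NT, while of all 5050 genes 111 were 2-fold higher in the RT libraries (2.20%). In NT 16 of the 105 were 2-fold higher, and each of these was so in RT as well. With any RT library left aside in place of NT, 16 genes passed in the other 3 libraries and none of them failed in the fourth. The NT count fixes this result, so it does not show whether NT stood apart. In monocytes 60 of 101 passed in the RT libraries, 16 of them under 2-fold in NT, and 48 passed in NT. Of all 5058 genes measured in monocytes, 136 passed in the RT libraries (2.69%). By list, the medians were 0.46, 1.78, 1.62 and 1.05 for antiviral effectors. They were 0.48, 2.10, 2.14 and 1.71 for 5 Schlafen genes, growth regulators of leukocytes, none of which reached 2-fold in NT. The 3 measured genes of ISG15 conjugation were at 0.60, 2.35, 2.07 and 2.19, oligoadenylate synthetase genes at 0.89, 2.18, 2.00 and 1.76, and nucleic acid sensors at 0.42, 1.82, 1.599 and 1.36. The eighth list, interferons and their receptors, stayed near 0 (0.017, 0.028, 0.22 and 0.092). Interferon transcription factors had medians of 0.12, 1.14, 1.13 and 0.77, and guanylate binding proteins with immunity-related GTPases 0.28, 2.05, 1.53 and 1.47.

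In NT some genes separated further among barcodes without an Ifnb1 UMI, a split made after seeing the data. The 40 such member macrophages held 59.9 CPM of Usp18, 153 of Slfn5 and 53.3 of Isg20, against 18.7, 57.2 and 8.32 CPM in the others. Irf7 was level there (33.3 against 31.7 CPM), and antiviral effectors summed to 6925 against 5310 CPM. Counts were low, since all NT member macrophages together held 14 UMIs of Usp18 and 29 of Slfn5. Usp18, which removes ISG15 and dampens the interferon receptor, shows the split over all cells. It was at 35.6, 288, 363 and 239 CPM in member macrophages and at 20.4, 21.3, 26.0 and 27.8 CPM in the others. Irf7, the factor that amplifies interferon transcription, was at 33.1, 200, 403 and 180 CPM in members and 32.4, 46.0, 100 and 60.3 CPM in the others, so in NT the 2 classes held the same level. Irgm1, a GTPase of intracellular defense, was at 137, 394, 515 and 454 CPM against 108, 88.6, 153 and 142 CPM. The remaining lists were closer to the background. MHC class I genes had medians of −0.01, 0.73, 0.63 and 0.43, MHC class II genes 0.51, 0.50, 0.38 and 0.27, chemokines 0.39, 0.44, 0.11 and 0.48, p53 targets −0.27, −0.04, −0.12 and −0.06, and cell cycle genes −0.62, 0.14, −0.43 and −0.36. Tumor-associated macrophage genes lay below 0 in each library (−0.28, −0.51, −0.56 and −0.65). Checkpoint and costimulatory ligands had medians of 0.47, 0.88, 0.87 and 0.60, with Cd274, which encodes PD-L1, at 323, 344, 490 and 509 CPM in members and 177, 91.9, 191 and 192 CPM in the others, and none of the 10 measured genes passed in all 4 libraries.

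**Figure D3:**
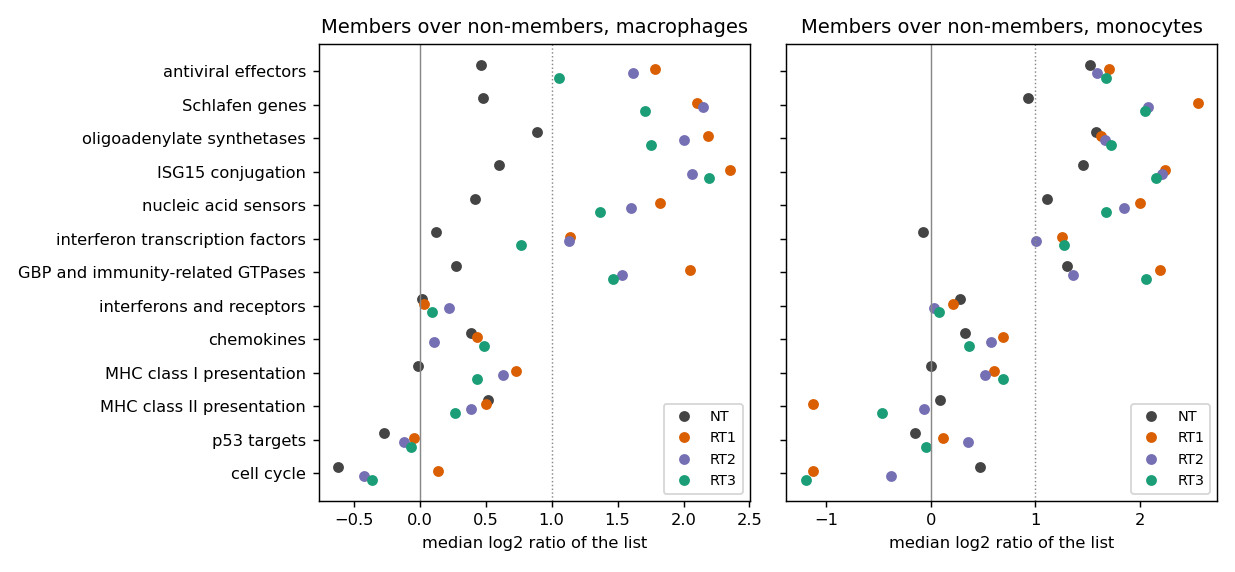
Median log2 ratio of members over non-members of the same library for 13 gene lists, in macrophages (left) and monocytes (right), with 1 point per library, a solid line at 0 and a dotted line at 2-fold. In macrophages the NT points of the interferon lists lie between 0.02 and 0.89 and the RT points reach 2.35. In monocytes antiviral effectors of NT (1.52) lie beside those of RT (1.58 to 1.70), as do oligoadenylate synthetase genes (1.58 against 1.63 to 1.73). Other monocyte lists have NT below RT, such as Schlafen genes (0.93 against 2.05 to 2.55) and interferon transcription factors (−0.08 against 1.01 to 1.27).

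In the monocytes, more of the interferon program was shared by all 4 libraries. Of 5058 genes, 79 were at least 2-fold higher in members (1.56%) and 4 lower (0.0791%), and 44 of the 79 belonged to the interferon lists, of which 101 genes were measured. The medians over those 101 genes were 0.91, 1.79, 1.49 and 1.59, against −0.24 for all genes over the 4 libraries. Of the 31 genes higher in macrophages, 22 (71.0%) were also among the 79 of monocytes, of which they made up 27.8%. The lists contributed 16 of 30 antiviral effectors, 10 of 19 nucleic acid sensors, 8 of 14 guanylate binding proteins and immunity-related GTPases, 3 of 5 oligoadenylate synthetase genes, 2 of 5 Schlafen genes, 2 of 3 genes of ISG15 conjugation, Stat2, Ifnb1 and Socs1. Without RT2, 92 were higher and 24 lower, without RT1 88 and 12, without RT3 92 and 18, and without NT 138 and 13.

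Usp18 was at 228, 595, 483 and 413 CPM in member monocytes and at 25.4, 31.2, 33.5 and 35.1 CPM in the others, and the NT value of members came from 7 UMIs in 4 cells, 4 of the UMIs in 1 cell. Slfn4, a Schlafen gene of immature myeloid cells, was at 911, 3213, 1290 and 1915 CPM against 67.0, 352, 286 and 348 CPM, but 21 of the 28 UMIs of NT members came from 1 of 3 positive cells. The cytosolic DNA sensor Cgas was at 65.1, 107, 126 and 68.9 CPM against 16.2, 23.04, 25.2 and 18.1 CPM, the NT value from 2 UMIs. Zbp1, a sensor of left-handed nucleic acid, was at 325, 568, 636 and 524 CPM against 148, 165, 312 and 212 CPM, and Mlkl, the executioner of necroptosis, at 65.1, 66.8, 91.4 and 96.4 CPM against 16.2, 21.1, 30.4 and 30.4 CPM. Cxcl10 was at 8653, 8023, 8489 and 9981 CPM against 1494, 906, 1523 and 1226 CPM. Ccl4, a chemokine that attracts leukocytes, was also higher, at 9857, 8891, 6384 and 6750 CPM against 3094, 2402, 2398 and 2199 CPM. Outside the lists, Daxx, a histone chaperone, was at 618, 1029, 773 and 868 CPM against 83.1, 120, 158 and 127 CPM, and Nt5c3, Phf11a, Gm5431, Samd9l, Rnf213, Themis2, Dck and Calhm6 were among the next by their smallest ratio. The 4 lower genes were Mmp9, Lpl, Nifk and Retnla, each with at most 1 UMI in NT members.

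The response element core was more frequent in the promoters of these genes than in those of all genes measured. Of 31 genes higher in member macrophages, 27 were matched to a promoter and 11 (40.7%) held the motif, and without the genes of the rule 7 of 22 did (31.8%), against 4.27% of the 4052 matched genes that were measured. Of 79 genes higher in member monocytes, 61 were matched and 22 (36.1%) held it, and without the rule genes 18 of 56 did (32.1%), against 4.33% of 4065.

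Ifnb1, the gene of interferon beta, was itself concentrated in the members. Member macrophages held 1049, 351, 79.9 and 612 CPM, and the other macrophages 74.6, 36.8, 7.28 and 25.8 CPM. In both classes NT was highest and RT2 lowest. At least 1 UMI was found in 59.6%, 26.6%, 6.37% and 37.0% of member macrophages and in 9.76%, 4.13%, 1.34% and 3.49% of the others, while tumor barcodes, which were deeper, showed it in 0.253%, 0.274%, 0.482% and 0.275%. Thinned to 1000 UMIs, the shares were 41.7%, 17.8%, 2.84% and 25.6% of member macrophages and 5.4%, 2.5%, 0.464% and 1.81% of the others. The classes were those of the unthinned cells, and shallower cells were left out. The 878 members, 1.59% of kept barcodes, carried 56.0%, 30.5%, 21.7% and 50.9% of all Ifnb1 UMIs of the 4 libraries. Seen from the other side, 53.2%, 33.6%, 24.4% and 55.6% of gated macrophages with an Ifnb1 UMI were members, against 7.68%, 5.66%, 6.04% and 7.13% of those without. Ifna2 was the other interferon gene higher in member macrophages, at 130, 16.6, 7.40 and 25.3 CPM from 51, 10, 5 and 12 UMIs in 6, 7, 2 and 8 cells. Ifng, which encodes interferon gamma, had no UMI in the members of any library, which over all 878 members allows up to 0.342% of cells with a UMI by counting error alone and sets no limit on cells that express the gene at this depth, whereas 38.8%, 53.01%, 51.2% and 43.5% of Cd3-positive barcodes held it. The receptor and kinase genes of the list did not pass in either direction, for example Ifnar2 at 135, 173, 195 and 217 CPM in member macrophages and 161, 170, 177 and 204 CPM in the others.

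Member macrophages with and without an Ifnb1 UMI differed in other genes as well. This split was made after seeing the data, and the 59, 49, 10 and 50 positive cells were deeper than the 40, 135, 147 and 85 negative ones (medians of 3609, 3315, 5688 and 3340 against 3224, 2247, 3626 and 2260 UMIs). Tnf, the inflammatory cytokine, was at 3420, 3303, 3886 and 3993 CPM in the positive cells and at 1971, 1333, 817 and 1050 CPM in the negative ones. Macrophages below the threshold showed the same, with Tnf at 2481, 2991, 2122 and 2295 CPM with an Ifnb1 UMI and 807, 668, 557 and 614 CPM without one. Usp18 ran the other way, at 20.6, 122, 104 and 57.5 CPM in positive and 59.9, 368, 387 and 381 CPM in negative cells. So did Slfn5 (24.7, 295, 226 and 95.8 against 153, 680, 576 and 612 CPM) and Cmpk2 (169, 224, 347 and 220 against 226, 737, 796 and 891 CPM). Irf7 was at 33.0, 96.7, 278 and 101 CPM in positive and 33.3, 250, 414 and 242 CPM in negative cells, level in NT and lower with Ifnb1 in each RT library. Macrophages below the threshold held more Cmpk2 with an Ifnb1 UMI (63.39, 20.70, 53.78 and 46.70 CPM) than without one (16.64, 15.56, 21.78 and 22.04 CPM). In the same cells Usp18 was at 33.8, 18.4, 24.4 and 13.3 CPM with an Ifnb1 UMI and 18.7, 21.5, 26.0 and 28.4 CPM without one. Slfn5 was nearly level there in NT (54.9 against 57.2 CPM) and lower with an Ifnb1 UMI in each RT library. Irf7 was higher with one in NT, RT1 and RT3 and lower in RT2. These values come from few UMIs in 52, 97, 31 and 40 positive cells, so their directions are weakly supported. Among barcodes without an Ifnb1 UMI, 59 genes were at least 2-fold higher in member macrophages than in the others in all 4 libraries, in place of 31.

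**Figure D4:**
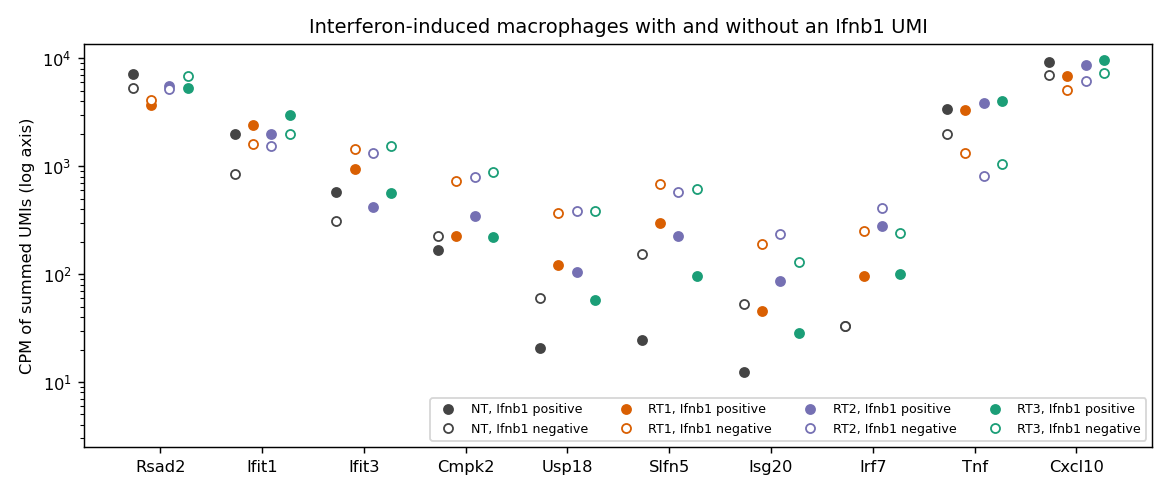
CPM of summed UMIs (log axis) for 10 genes in interferon-induced macrophages with an Ifnb1 UMI (filled) and without one (open), by library. Tnf and Cxcl10 lie higher in the filled symbols of each library, while Cmpk2, Usp18, Slfn5 and Isg20 lie lower, and RT2 rests on 10 positive cells.

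RT members were then compared with NT members, which the threshold chose separately in each library. With 1 NT library, an effect of radiotherapy cannot be told apart from a difference between libraries. A gene was counted when it was at least 2-fold different from NT in every RT library and no RT value fell in the exact Poisson 95% interval of the NT count. In member macrophages, 221 of 4915 genes were higher (4.5%) and 64 lower (1.3%), and in gated macrophages below the threshold 74 (1.43%) and 64 (1.24%) of 5157. All ratios share the 1 NT library, and 49 of the 221 genes rest on at most 3 NT UMIs. Without RT2, 316 were higher and 106 lower, without RT1 248 and 102, and without RT3 350 and 100.

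In member macrophages 7 of the 8 interferon lists held genes that were higher after radiotherapy, while over the other macrophages the median of the 8 lists together lay near 0. Of 106 measured genes, 32 were higher in every RT library and 1 lower, with a median log2 ratio of 1.06, against 0.08 for all genes. In the other macrophages, 1 of 89 was higher (Slfn4) and 1 lower, with a median of 0.00, although the medians of 5 Schlafen and 3 oligoadenylate synthetase genes were 0.84 and 0.80 there. All 3 measured genes of ISG15 conjugation were higher (Usp18, Herc6 and the conjugating enzyme Ube2l6, which was at 30.5 CPM in NT and 73.2, 246 and 82.3 CPM in RT), as were 3 of 5 Schlafen genes, 10 of 21 nucleic acid sensors, 9 of 32 antiviral effectors, 5 of 14 guanylate binding proteins and immunity-related GTPases, 1 of 5 oligoadenylate synthetase genes (Oas3) and 1 of 15 transcription factors (Irf7). Of 11 interferon and receptor genes none was higher and Ifna2 was lower, with a median of 0.016. Slfn5 was at 73.8 CPM in NT members and 554, 546 and 384 CPM in RT members, and at 57.0, 108, 120 and 114 CPM in the other macrophages. Slfn4 was at 40.7 CPM in NT and 459, 610 and 268 CPM in RT members, and at 27.8, 67.5, 94.3 and 70.3 CPM in the other macrophages. The sensors that were higher were mostly of the interferon-inducible p200 family, such as Ifi205 at 15.3 CPM in NT and 86.5, 175 and 69.7 CPM in RT, together with the endosomal RNA receptors Tlr3 and Tlr7 and the RNA editor Adar. MHC class I presentation had a median of 0.55, with 4 of 19 genes higher (Nlrc5, Tap1, H2-Q6 and H2-T22), and the peptide transporter Tap1 was at 127 CPM in NT and 291, 403 and 289 CPM in RT.

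The 5 genes of the rule are not compared between RT and NT, since their sum chose the members, and Ifit3, which is 1 of the 221, is given no reading. Cxcl10 did not pass, which was at 8389 CPM in NT and had a mean of 6842 ± 1431 CPM (SD, n = 3) in RT. Ifnb1 was 1049 CPM in NT and 348 ± 266 CPM in RT (n = 3), lower in each library but by under 2-fold in RT3. Ifna2 was lower in each RT library. In barcodes without an Ifnb1 UMI the median of antiviral effectors, RT over NT, was 1.03, against 1.06 over all 32 measured genes with those barcodes in. Other lists moved more, in both directions. Oligoadenylate synthetase genes went from 1.22 to 1.46 and ISG15 conjugation from 1.75 to 1.90. Guanylate binding proteins and immunity-related GTPases went from 1.06 to 0.90, checkpoint and costimulatory ligands from 0.98 to 0.74 and p53 targets from 1.30 to 0.88.

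MHC class II and cell cycle genes were lower than in NT both in members and in the other macrophages. MHC class II genes were lower, with medians of −2.16 in members and −2.04 in the others and 5 of 7 measured genes counted in each. H2-Ab1, a class II beta chain, was at 6801 CPM in NT members and 1135, 1955 and 1562 CPM in RT members, and at 4759, 801, 1474 and 1295 CPM in the other macrophages. Cell cycle genes had medians of −1.71 and −1.88 over the 10 genes measured in both, with 5 of 10 measured genes lower in members and 11 of 12 in the others. Mki67 was at 56.0 CPM in NT members and 11.6, 7.40 and 14.8 CPM in RT members. The p53 target Cdkn1a, an inhibitor of the cell cycle, was at 270 CPM in NT members and 1222, 1742 and 1246 CPM in RT, and at 301, 1346, 1940 and 1262 CPM in the other macrophages. Of 11 measured p53 targets in members, Zmat3, Trp53inp1, Ccng1, Cdkn1a and Fas were higher and Pmaip1 lower, and of 12 in the others Phlda3, Trp53inp1 and Cdkn1a were higher. Over the 11 genes measured in both, the median was 1.30 in members and 0.64 in the others, but gene by gene the median of the difference was 0.20, and 6 of the 11 lay above 0 in every RT library. Fas had no UMI in NT members and was at least 3.87-fold higher in RT, against a floor of 3 UMIs. Ccl8, a monocyte chemoattractant, was at 1868 CPM in NT members and 7855, 4451 and 6948 CPM in RT members, and at 1511, 5603, 3762 and 4967 CPM in the other macrophages.

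Classical monocyte genes were higher after radiotherapy in member macrophages and in the others. Of 8 classical monocyte markers 5 passed, Chil3, Plac8, Vcan and Ly6c2 among them, with a median of 2.39. The same 4 passed in the other macrophages, of 7 measured, and over the 7 genes measured in both classes the median was 2.16 in members and 1.17 in the others. Non-classical monocyte markers lay the other way, with a median of −0.92 over 2 measured genes in members, neither of which passed, and of −1.57 over 3 in the others, where Itgal and Cx3cr1 were lower. Ly6c2 was at 28.0 CPM in NT and 240, 574 and 129 CPM in RT, from 4 cells in NT and 22, 45 and 16 in RT. Of the macrophage markers Mertk, Pf4 and Lyve1 passed in members and also in the other macrophages, with list medians of 0.89 and 0.87. Lgals3bp, a secreted glycoprotein that binds galectin-3, was at 99.3 CPM in NT and 982, 830.4 and 730.5 CPM in RT members, and at 122, 537, 449 and 428 CPM in the other macrophages. Tnfsf10, which encodes the death ligand TRAIL, rested on 2 UMIs in NT (5.09 CPM, 0.617 to 18.4) and was at 36.6, 38.5 and 19.0 CPM in RT. Among genes outside the lists, Icam1, an adhesion molecule, was at 45.8 CPM in NT and 230, 321 and 211 CPM in RT, with like values in the other macrophages (55.1, 201, 268 and 216 CPM). Retnla had no UMI in NT members and 1682, 290 and 27.4 CPM in RT members, but 902 of 1011 UMIs in RT1 and 176 of 196 in RT2 came from 1 cell each. Among the lower genes outside the lists, Cyp51, a demethylase of lanosterol, was at 183 CPM in NT members and 34.9, 17.8 and 19.0 CPM in RT, and at 117, 39.2, 36.5 and 32.2 CPM in the other macrophages.

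**Figure D5:**
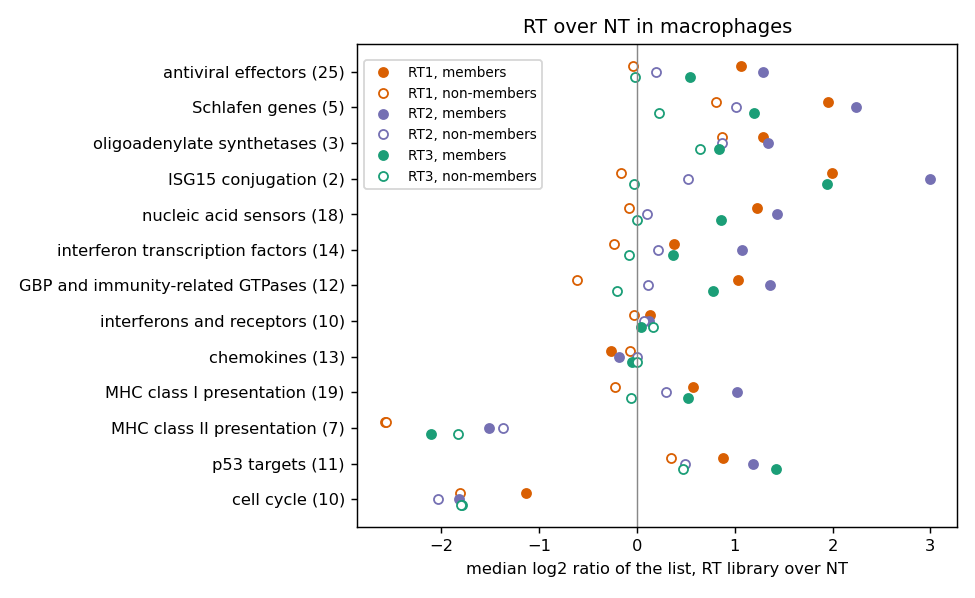
Median log2 ratio of each RT library over NT for 13 gene lists, in interferon-induced macrophages (filled) and in gated macrophages below the threshold (open), over the genes measured in both (number in parentheses). Antiviral effectors lie at 1.06, 1.29 and 0.54 in members and between −0.04 and 0.19 in the others, while MHC class II and cell cycle genes lie below −1 in both.

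In member monocytes the contrast of RT with NT rests on the 20 cells of NT, and in simulated data at this depth the fold rule also called genes that had not been changed, so single calls are weakly supported. Of 4775 genes, 65 were higher (1.36%), among them the rule gene Ifit1, which is given no reading, and 96 lower (2.01%). Scaling moved this split, to 151 and 48 with TMM factors and 120 and 62 with median-of-ratios factors, which shift the median of all genes from 0.00 to 0.38 and 0.28. Without RT2, 90 were higher and 168 lower, without RT1 80 and 160, and without RT3 102 and 184. Of 108 measured interferon genes, 8 were higher and 1 lower, with a median of 0.75. The other monocytes also lay above 0, over the genes measured in both classes. Medians in members and others were 1.49 and 0.71 for Schlafen genes and 2.60 and 0.73 for oligoadenylate synthetase genes. They were 0.81 and 0.22 for nucleic acid sensors, 0.47 and 0.16 for antiviral effectors and 0.75 and 0.11 for interferon transcription factors. Slfn5 was at 260 CPM in NT (8 UMIs, 112 to 513) and 1289, 986 and 1178 CPM in RT, and Oasl1 at 260 CPM (112 to 513) and 1309, 929 and 592 CPM. Irf7, from 1 UMI in NT (32.5 CPM, 0.824 to 181), was at 281, 362 and 207 CPM in RT. Ifnb1 was the gene that was lower, at 781 CPM in NT and 46.8, 53.3 and 68.9 CPM in RT, but 16 of the 24 UMIs of NT came from 1 of 5 positive cells. The chemokines Ccl12 and Ccl7 were higher. Ccl12 was at 163 CPM in NT and 1343, 1439 and 1033 CPM in RT, and in the monocytes below the threshold at 203, 458, 422 and 316 CPM. Il1b, the gene of interleukin 1 beta, was lower, at 12947 CPM in NT and 3621, 4115 and 4463 CPM in RT, with 11746, 3941, 4625 and 3611 CPM in the other monocytes. MHC class II genes had a median of −2.19, with 4 of 7 lower, and of −1.92 in the other monocytes. Markers of other cells moved with these values. The 10 dendritic cell markers, led by Cd209a in NT, summed to 520 CPM in NT members (16 UMIs, 297 to 845) and 73.5, 129 and 55.1 CPM in RT, and to 194, 90.3, 73.2 and 84.3 CPM in the other monocytes. Itgax and Mgl2, both also made by dendritic cells, were among the lower genes outside the lists, with Itgax at 553 CPM in NT members and 40.1, 38.1 and 20.7 CPM in RT. The 8 neutrophil markers had no UMI in NT members, which allows up to 97.6 CPM, and summed to 254, 247 and 172 CPM in RT, with S100a8 most abundant in RT1 and RT2, and to 155, 135, 331 and 292 CPM in the other monocytes. Their part in the differences was not tested.

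Member macrophages and monocytes were also set against each other in the same library. Both had met the same threshold on interferon genes and were split by complement genes. The comparison therefore cannot rank differences of lineage against those of interferon genes. Of 4887 genes, 113 were at least 2-fold higher in member macrophages in all 4 libraries (2.31%) and 97 lower (1.98%). The split became 166 and 58 with TMM factors and 143 and 70 with median-of-ratios factors, which move the median of all genes from 0.03 to 0.31 and 0.20. Without RT2, 153 were higher and 154 lower, and without NT 167 and 148. Of 107 measured interferon genes none was higher in macrophages and 4 were lower (Ifitm1, Ifitm6, Slfn4 and Socs1), and 61 lay below 0 in each library, with a median of −0.55. Slfn4 was at 40.7, 459, 610 and 268 CPM in member macrophages and 911, 3213, 1290 and 1915 CPM in member monocytes, with the NT value resting mostly on 1 cell. Among chemokines, Ccl8, Cxcl9 and Cxcl16 were higher in macrophages. Ccl8 was at 1868, 7855, 4451 and 6948 CPM in member macrophages and at 65.1, 194, 79.9 and 13.8 CPM in member monocytes. Cxcl9, like Cxcl10 a ligand of CXCR3, was at 2146, 1291, 1560 and 1522 CPM against 748, 220, 754 and 282 CPM. Tnf and Il10 were higher in macrophages and Il1b and Cxcl3 lower, with Tnf at 2866, 1977, 1079 and 2348 CPM against 520, 848, 286 and 489 CPM. Outside the lists, Fcgrt, Cbr2, Vcam1, Npl and Bmp2 led the higher genes and B3gnt5, Gpr141, Ramp3, Gsr and Trem1 the lower ones.

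Within the members, antiviral effectors followed the share of the 5 genes in RT and less regularly in NT. Antiviral effectors, none of which the rule read, summed to 9176 CPM in RT1 member macrophages between 0.5% and 1%, to 13072 CPM between 1% and 2% and to 15300 CPM at 2% or more. The sums were 11407, 15746 and 18479 CPM in RT2 and 6829, 10091 and 18515 CPM in RT3. In NT they were 6322, 5445 and 8319 CPM. Ifnb1 over the same steps in NT was at 642, 1570 and 2627 CPM. In RT it was at 303, 495 and 503 CPM (RT1), 59.4, 52.2 and 689 CPM (RT2) and 585, 631 and 802 CPM (RT3). The upper steps held 8, 6, 7 and 8 macrophages, and the strata come from the readout that chose the members, so these values are a description.

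The same threshold was met outside the myeloid gate. Of Rhox5-positive tumor barcodes, 0.253% (15 of 5930) reached 0.5% in NT and 0.686%, 1.83% and 1.13% in RT, and of Cd3-positive barcodes 5.22%, 14.5%, 6.57% and 8.70%. Among barcodes with Csf3r and Retnlg it was 0 of 3 in NT, too few for a share, and 13.9%, 14.9% and 3.70% in RT. In tumor barcodes the lists separated cells above the threshold from those below in NT too. The log2 ratio of summed ISG15 conjugation genes was 3.30 in NT and 3.70, 2.23 and 3.33 in RT, against 0.25 in NT and 2.64, 2.54 and 2.35 in RT for macrophages. For guanylate binding proteins and immunity-related GTPases it was 3.68 in NT and 3.86, 2.00 and 3.43 in RT, against 0.22 and 2.01, 1.56 and 1.39 for macrophages.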

How the data were processed

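Single-cell RNA sequencing was performed on 4 libraries (1 NT and 3 RT). The authors prepared them with a microwell 3′ kit and deposited UMI counts as whole numbers per gene and called barcode, without normalization, which were used as deposited. The submitters' processing notes name STAR 2.5.1b, featureCounts, Subread 1.6.4, Cell Ranger and GRCm39. The filter behind the RT2 table is not given in the sources used here. Tables were joined on symbols, repeats of which were made unique in table order. No doublet caller was run. Barcodes in the top 5% of UMIs were left out in an alternative.

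For each class of cells and each library, UMIs were added up and scaled to the class total (CPM). Fold ratios used a pseudocount of 5 CPM and a mean of at least 20 CPM. Cells of 1 library are not replicates and NT is 1 library, so no p-value was computed. Intervals (exact binomial and exact Poisson, 95%) cover counting error only. Members and the 27 gene lists were chosen with earlier results of these data known. Genes were named when in the rule, when among the 4 most abundant or 4 most different of a list, or when among the 10 most different outside the lists, and others after their values were seen. The fold rules were tested on simulated data, where false calls were most frequent for RT over NT in member monocytes. Alternatives covered thresholds, filters, thinning to a fixed number of UMIs, scaling (TMM by edgeR 4.0.16, median of ratios, mean over cells), pseudocounts and each library left out. Ifi44l, Mx1, Mx2, Oas1b, Sting1 and Cxcl11 were not analysed here, and some genes are not reported here. Python 3.11.15 with numpy 2.4.6, scipy 1.17.1, pandas 2.3.3 and matplotlib 3.10.9 was used.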

Additional observations from a re-analysis of the deposited data

Results flagged for a closer look

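In 3 cases values of macrophages and monocytes lay on opposite sides in every RT library against NT, and in each the difference between the classes was not tested. The share of members among gated macrophages differed by −7.62 percentage points between the RT mean and NT, and that among gated monocytes by 0.902 points. After thinning to 2000 UMIs the monocyte share was 10.3% in NT and 6.15%, 8.48% and 6.31% in RT, so that each RT library then lay below NT, but this setting left out shallower cells and reselected the members, with 10 member monocytes in place of 20 in NT and 27, 70 and 19 in place of 91, 99 and 93 in RT. The median log2 ratio of RT over NT of 13 chemokine genes was −0.22 in member macrophages and 0.18 in member monocytes, but single genes of the list lay on both sides in macrophages, where 3 were higher (Ccl8, Ccl9 and Ccl6) and none lower. The first turned to 0.087 without barcodes that held an Ifnb1 UMI and the second to −0.0064 at a threshold of 0.25%. Rgs1, a regulator of G protein signaling downstream of chemokine receptors, had a mean log2 ratio of −1.33 in member macrophages (3775 CPM in NT and 1376, 1585 and 1533 CPM in RT) and of 1.28 in member monocytes (260 CPM in NT, from 8 UMIs, and 715, 674 and 544 CPM in RT).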

How the results depend on the processing

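The share of members among gated cells (RT minus NT, −5.06 points) was −8.33 with a threshold of 0.25% for the 5 genes, −1.18 with 1%, −7.17 after thinning to 2000 UMIs, −2.18 for members with at least 4 of the 5 genes, −0.182 without barcodes that held an Ifnb1 UMI, and reversed to 0.491 over all kept barcodes, a different denominator. The macrophage share of members (−20.7 points) was −26.0 at 1%, −10.5 thinned and −15.6 without Ifnb1 barcodes. The settings on Ifnb1 and on 4 of the 5 genes were added after seeing the data. Counts for members over non-members in macrophages (31 higher, 2 lower) became 16 higher with a pseudocount of 20 CPM, 59 higher without Ifnb1 barcodes, and lower 1 at 0.25%, 6 at 1%, 4 with at most 10% mitochondrial UMIs, 1 without the top 5% by UMIs, 4 with no filter on the mean, 1 at a mean of 50 CPM and 1 with a pseudocount of 20 CPM. In monocytes (79 higher, 4 lower) they became 50 higher and 19 lower after thinning, and lower 2 at 0.25%, 35 at 1%, 7 with at most 10% mitochondrial UMIs, 7 with Rhox5 at 0, 10 as a mean over cells, 49 with no filter, 1 at 50 CPM, 10 and 2 with pseudocounts of 1 and 20 CPM, 17 with 4 of the 5 genes and 7 without Ifnb1 barcodes. Macrophages over monocytes (113 higher, 97 lower) gave 193 higher with no filter, 72 at 50 CPM, 67 with a pseudocount of 20 CPM, and 58 lower with TMM factors. RT over NT in member macrophages (221 higher, 64 lower) gave 164 lower at 1%, 189 lower with no filter, 141 higher and 27 lower at 50 CPM, and 108 higher and 40 lower with a pseudocount of 20 CPM. In member monocytes (65 higher, 96 lower) it gave 18 higher at 1%, 151 higher and 48 lower with TMM factors, 120 higher and 62 lower with median-of-ratios factors, 100 higher as a mean over cells, 33 higher with 4 of the 5 genes, 210 lower with no filter and 61 lower at 50 CPM. Each library left out in turn gave 32 to 112 higher and 3 to 5 lower for macrophage members, 88 to 138 and 12 to 24 for monocyte members, 121 to 167 and 110 to 154 for macrophages over monocytes, 248 to 350 and 100 to 106 for RT over NT in macrophages and 80 to 102 and 160 to 184 in monocytes, since fewer libraries had to pass. Reversed single genes were Plxdc2 (1.52) and Il7r (1.90) at 1%, Iigp1 (−0.056), Tk1 (0.88), Tbca (−1.37), Tapbp (−0.11) and Spast (1.55) after thinning, Top2a (1.85), Tk1 (1.03) and Il7r (1.29) with 4 of the 5 genes, and Nol8 (0.71) without Ifnb1 barcodes, all in RT over NT of monocytes except Iigp1, which was in members over non-members. Among list medians of RT over NT, cell cycle genes in monocytes turned from −1.44 to 1.85 with 4 of the 5 genes, and chemokines in macrophages from −0.22 to 0.087 without Ifnb1 barcodes. Medians closer to 0 also changed sign under some of 20 settings, in macrophages inflammatory cytokines (1 setting) and interferons and receptors (5), and in monocytes chemokines (1), inflammasome genes (1, from 0.47 to −0.17 thinned), inflammatory cytokines (4), p53 targets (5), interferons and receptors (7) and tumor-associated macrophage genes (8). Thinning left out cells under 2000 UMIs. The cause was not tested. No paired analysis was possible because the NT group was 1 library whose label gives no replicate number.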
